A study of Mus musculus with 12 samples.

Results

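The genes of sterol and fatty acid synthesis were taken as a fixed list of 28 enzymes and regulators, split into a sterol branch and a fatty acid branch, and followed across 344SQ tumours. Of the 28, 27 were measured, 15 in the sterol branch and 12 in the fatty acid branch, out of 18193 genes named on the arrays. Acat2, the cytosolic acetyl-CoA acetyltransferase, was not analysed here. All 27 passed the filter on dim genes, which kept 15493 genes. 1 probe set stood for each gene, the one with the highest mean over the 12 arrays.

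344SQ is a lung adenocarcinoma cell line of the mouse, here placed under the skin of the right flank of female 129sv/ev mice. 4 groups were compared. The resistant line (Res), a derivative of 344SQ that no longer responds to anti-PD-1, was given anti-PD-1 (Res+PD1) or control IgG (Res+IgG), and the parental line (Sen) was given anti-PD-1 (Sen+PD1) or control IgG (Sen+IgG). Anti-PD-1 blocks an inhibitory receptor of T cells. Both antibodies were dosed at 10 mg/kg on days 4 and 7, and RNA came from whole tumours taken on day 11. Each group had 5 mice and 3 arrays, and the labels do not say which mice stand behind an array, so the p-values cover the spread among arrays and no more. The labels name 1 resistant derivative. In whole tumours, fewer cells of a type and less RNA per cell cannot be told apart.

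Both branches start from cytosolic acetyl-CoA, which Acly makes from citrate and Acss2 makes from acetate. The mevalonate pathway (Hmgcs1, Mvk, Pmvk, Mvd, Idi1, Fdps) builds isoprenoids, Fdft1 and Sqle commit them to sterols, and Lss, Cyp51, Nsdhl and Dhcr7 finish cholesterol. Acaca and Fasn make palmitate, which elongases (Elovl) lengthen and desaturases (Scd, Fads) unsaturate. The membrane-bound transcription factors SREBP-2 (Srebf2) and SREBP-1 (Srebf1) switch on these genes, SREBP-2 mainly the sterol branch and SREBP-1 mainly the fatty acid branch, and Insig1 retains them in the endoplasmic reticulum when sterols are plentiful.

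SREBPs are known to bind sterol regulatory elements, often beside a CCAAT box, the site of NF-Y. RefSeq promoters (GRCm38.p6) matched 20 of the 27 measured members, with 26 promoters. The 250 bases before each start were searched on both strands for TCACNCCA, a form of the sterol regulatory element, for CCAAT, and for CACGTG, an E-box. CCAAT was found in 11 of 11 sterol genes and 5 of 9 fatty acid genes, where 39.5% of 12373 tested genes with a promoter held it. TCACNCCA was found in 2 of 11 sterol genes (Hmgcs1 and Srebf2) and 0 of 9 fatty acid genes, against 4.02% of tested genes. CACGTG was found in 2 sterol genes and 1 fatty acid gene (Elovl5), against 9.19% of tested genes. Matches of different motifs overlapped 0 times. Over all 32851 promoters the shares were 33.8% for CCAAT, 3.67% for TCACNCCA and 6.02% for CACGTG. The 180 bases before the start of 5 genes are shown, all on the plus strand of the build, with the matches in capitals (ATTGG is CCAAT on the other strand). Hmgcs1 and Srebf2 hold the sterol element, Mvk has the most CCAAT boxes of the members (5), and Acss2 and Elovl5 are the members called between the lines under each antibody.
Hmgcs1, chr13:119690171-119690350: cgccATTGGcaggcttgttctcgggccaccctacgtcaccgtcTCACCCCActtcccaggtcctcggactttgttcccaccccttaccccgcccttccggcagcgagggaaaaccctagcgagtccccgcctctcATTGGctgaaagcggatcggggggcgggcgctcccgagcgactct
Srebf2, chr15:82147089-82147268: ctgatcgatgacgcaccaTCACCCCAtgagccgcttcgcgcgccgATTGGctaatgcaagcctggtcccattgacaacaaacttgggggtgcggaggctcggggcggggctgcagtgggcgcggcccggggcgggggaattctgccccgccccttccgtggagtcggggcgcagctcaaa
Mvk, chr5:114444089-114444268: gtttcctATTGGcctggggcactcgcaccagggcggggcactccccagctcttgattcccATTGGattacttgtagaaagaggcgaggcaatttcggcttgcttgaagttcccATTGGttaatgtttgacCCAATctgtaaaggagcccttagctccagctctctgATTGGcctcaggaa
Acss2, chr2:155517863-155518042: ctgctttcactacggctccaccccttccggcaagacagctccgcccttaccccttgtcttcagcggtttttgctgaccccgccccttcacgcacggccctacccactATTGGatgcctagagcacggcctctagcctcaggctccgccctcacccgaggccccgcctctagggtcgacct
Elovl5, chr9:77917185-77917364: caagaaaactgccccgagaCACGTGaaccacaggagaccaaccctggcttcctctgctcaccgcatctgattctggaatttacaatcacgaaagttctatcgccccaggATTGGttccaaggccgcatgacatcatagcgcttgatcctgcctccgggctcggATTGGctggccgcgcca

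As a whole the arrays separated by line, and 2 of them stood apart. The first principal component held 48.5% of the variance and put all 6 Res arrays (14.2 to 32.7) above all 6 Sen arrays (-49.8 to -1.1). The arrays furthest out were Sen+PD1 replicate 3, lowest on both components (-49.8 and -33.4), and Sen+IgG replicate 1, highest on the second (41.6). The 11 tested cell cycle genes averaged 9.13 to 9.45 (mean log2 level) on Res arrays and 7.91 to 8.95 on Sen arrays. The 12 epithelial genes averaged 8.50 to 8.61 on Res arrays and 8.57 to 9.60 on Sen arrays. The 8 tested lung lineage genes averaged 5.53 to 5.68 on Res arrays and 5.93 to 6.21 on Sen arrays. 5 defining markers were looked up after the values were seen. The keratin Krt8 read 13.13 to 13.26 on Res arrays and 13.06 to 13.52 on Sen arrays, and the keratin Krt18 read 12.79 to 12.92 on Res arrays, below all Sen arrays (13.08 to 13.33). Epcam, an epithelial adhesion molecule, read 7.51 to 8.08 on Res arrays and 7.68 to 10.37 on Sen arrays. The lung markers were near the dim end of the scale: the lineage factor Nkx2-1 read 3.78 to 4.01 on Res arrays and 3.88 to 4.16 on Sen arrays, and Sftpc, surfactant protein C, read 4.53 to 5.08 on Res arrays and 4.25 to 4.56 on Sen arrays. The 11 measured T and NK cell genes averaged 4.29 to 4.85 on Res arrays and 4.42 to 5.98 on Sen arrays. RNA ends also moved with the line: the 3′ minus 5′ signal of Gapdh was -0.03 to 0.09 on Res arrays and 0.14 to 0.38 on Sen arrays. The part of these features in the results below was not tested.

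**Figure D1:**
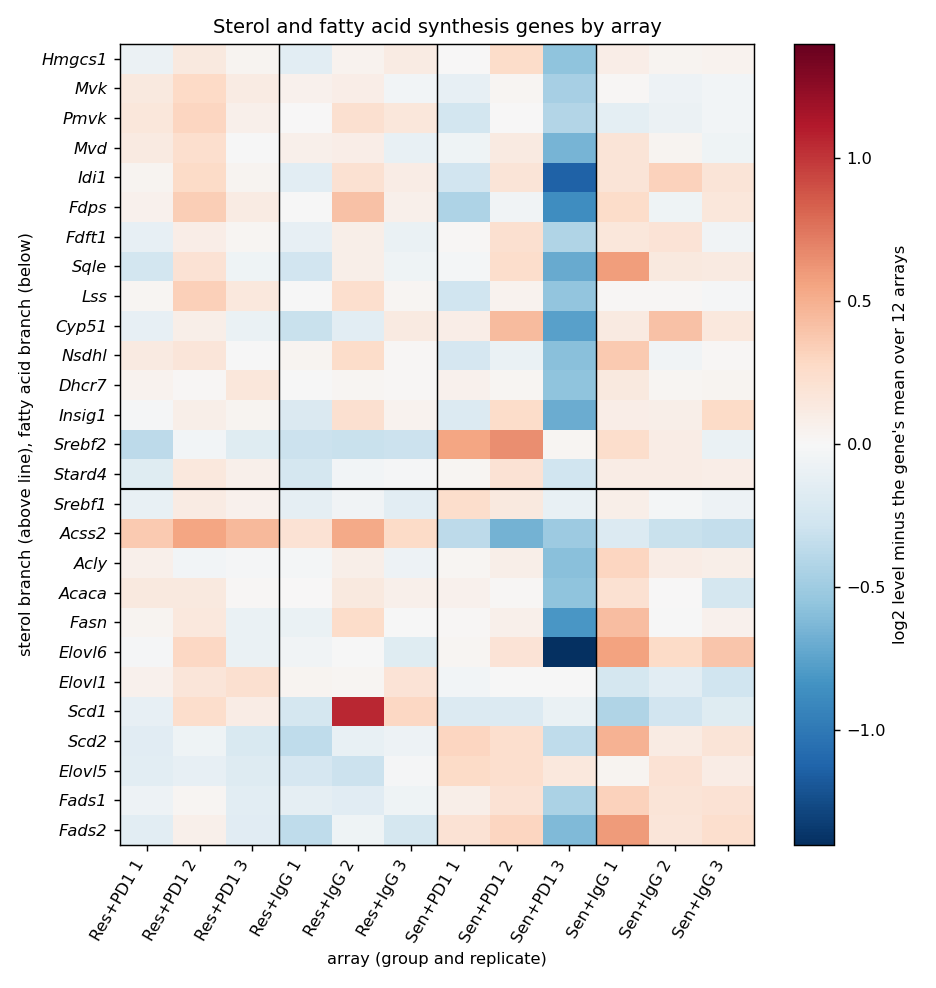
Log2 level of each of the 27 members on each array, minus that gene's mean over the 12 arrays (colour scale); columns are arrays by group and replicate, the black line separates sterol from fatty acid genes. Acss2 is above its mean on all 6 Res arrays and below it on all 6 Sen arrays, and Sen+PD1 replicate 3 is low across 20 of the 27 members.

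Acss2 was the member that differed most between the lines. Acss2, which makes acetyl-CoA from acetate, read 6.48, 6.66 and 6.56 (log2 level) on Res+PD1 arrays and 6.31, 6.64 and 6.38 on Res+IgG arrays, against 5.74, 5.45 and 5.60 on Sen+PD1 arrays and 5.92, 5.80 and 5.78 on Sen+IgG arrays. All 6 Res arrays lay above all 6 Sen arrays. Averaged over both antibodies, Acss2 was 1.73-fold higher in Res tumours (log2 difference 0.79, SE 0.08, limma, Benjamini-Hochberg adjusted p = 3.14e-05), with means of 6.50 ± 0.14 in Res and 5.71 ± 0.17 in Sen (SD, n = 6 arrays each). The difference was 0.97 under anti-PD-1 (1.96-fold, adjusted p = 0.000158) and 0.61 under IgG (1.53-fold, adjusted p = 0.00422). A second probe set of Acss2 gave differences of 1.12 under anti-PD-1 and 0.70 under IgG, and another, dim one (mean level 4.33) gave 0.10 and -0.01.

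With all 12 arrays, few of the members differed between the lines when set beside all genes. Averaged over both antibodies, 6 of 27 members passed the test between the lines (limma, adjusted p under 0.05), where 40.3% of all tested genes did. 3 were higher in Res tumours (Acss2, Elovl1 and Pmvk), against 25.2% of all tested genes, and 3 lower (Elovl5, Srebf2 and Scd2), against 15%. The median difference was 0.09 over 15 sterol members, -0.01 over 12 fatty acid members and 0.08 over all tested genes. Res and Sen arrays did not overlap for 3 members, Acss2, Elovl1 and Elovl5, where 17.8% of all tested genes showed no overlap. Without Sen+PD1 replicate 3, an omission described below, 10 of 27 members passed, nearer the share of all tested genes (42.5%).

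**Figure D2:**
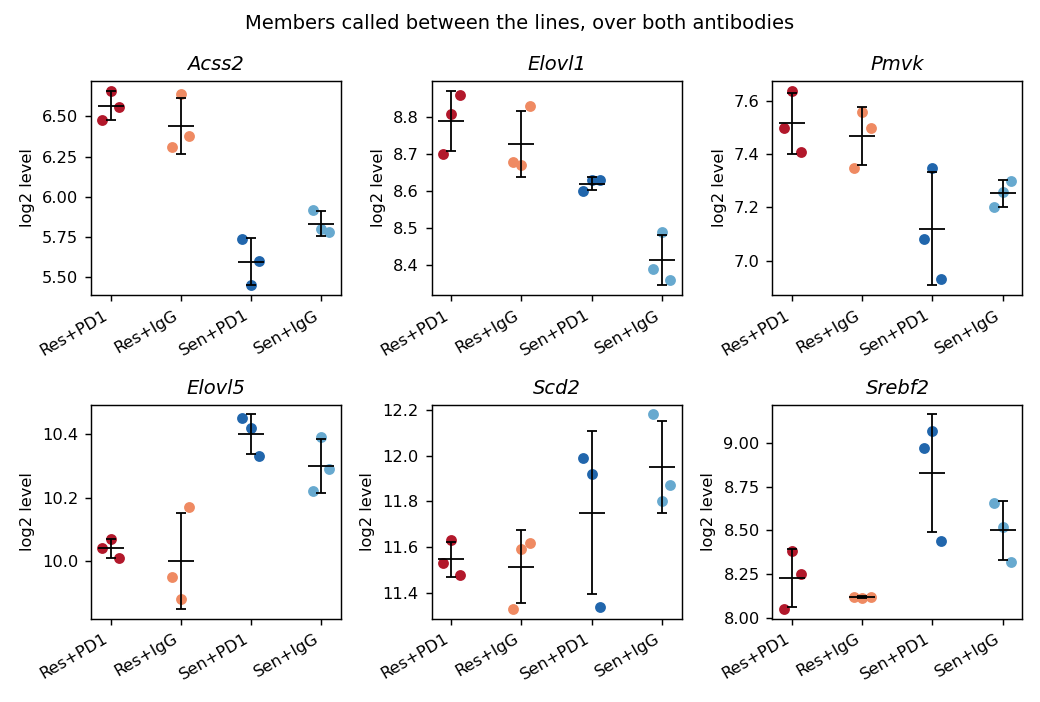
Log2 level on each array (points) with group means and SD (bars, n = 3) for the 6 members called between the lines over both antibodies, 4 groups per panel. Acss2, Elovl1 and Elovl5 have no overlap between the 6 Res and 6 Sen arrays, while Pmvk, Scd2 and Srebf2 overlap.

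A pair of elongases moved in opposite directions. Elovl5, which elongates polyunsaturated fatty acids, read 10.04, 10.07 and 10.01 on Res+PD1 arrays and 9.95, 9.88 and 10.17 on Res+IgG arrays, against 10.45, 10.42 and 10.33 on Sen+PD1 arrays and 10.22, 10.39 and 10.29 on Sen+IgG arrays. Every Res array was below every Sen array. It was 1.26-fold lower in Res tumours over both antibodies (log2 difference -0.33, SE 0.06, limma adjusted p = 0.00178), and its second probe set gave -0.29 (adjusted p = 0.00284). By antibody the difference was -0.36 under anti-PD-1 (adjusted p = 0.00967) and -0.30 under IgG (adjusted p = 0.0405). The IgG call was lost without any 1 of 9 arrays, Sen+IgG replicates 1, 2 and 3 among them.

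Elovl1, which elongates saturated very long chain fatty acids, read 8.70, 8.81 and 8.86 on Res+PD1 arrays and 8.68, 8.67 and 8.83 on Res+IgG arrays, against 8.60, 8.63 and 8.63 on Sen+PD1 arrays and 8.39, 8.49 and 8.36 on Sen+IgG arrays. All Res arrays were above all Sen arrays, by little under anti-PD-1. The difference over both antibodies was 0.24 (1.18-fold, SE 0.05, limma adjusted p = 0.00485). Under IgG it was 0.31 (adjusted p = 0.0197), and under anti-PD-1 it was 0.17 (adjusted p = 0.109). The IgG call was lost without Sen+IgG replicate 1, Sen+IgG replicate 3 or Res+IgG replicate 3. Of its other 3 probe sets, 2 gave averaged differences of 0.35 and 0.19 (both called), the first of them also called under anti-PD-1 (0.42, adjusted p = 0.0085), and the dimmest gave 0.01.

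Of the desaturases, Scd2 was lower in Res tumours and the others did not pass on their brightest probe sets. Scd2, a stearoyl-CoA desaturase that makes monounsaturated fatty acids, read 11.53, 11.63 and 11.48 on Res+PD1 arrays and 11.33, 11.59 and 11.62 on Res+IgG arrays, against 11.99, 11.92 and 11.34 on Sen+PD1 arrays and 12.18, 11.80 and 11.87 on Sen+IgG arrays. Only Sen+PD1 replicate 3 overlapped the Res arrays. Scd2 passed narrowly over both antibodies (difference -0.32, SE 0.12, limma adjusted p = 0.0496), and 3 of 18 alternative settings kept the call. Fads2, the delta-6 desaturase of polyunsaturated fatty acids, had means of 6.68 ± 0.15 in Res+IgG and 7.23 ± 0.23 in Sen+IgG (SD, n = 3 each), a difference of -0.55 (adjusted p = 0.0989). Its dimmest probe set (mean level 5.05) gave -0.58 and passed (limma adjusted p = 0.0332), and a further one gave -0.41 (adjusted p = 0.115). Fads1, the delta-5 desaturase, read 8.23, 8.19 and 8.29 on Res+IgG arrays, against 8.67, 8.53 and 8.56 on Sen+IgG arrays. The groups did not overlap, and the difference was -0.35 (adjusted p = 0.11).

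Scd1, the other stearoyl-CoA desaturase, had positive differences that did not pass on its brightest probe set. It read 9.73, 10.09 and 9.95 on Res+PD1 arrays and 9.60, 10.90 and 10.13 on Res+IgG arrays, against 9.65, 9.65 and 9.75 on Sen+PD1 arrays and 9.42, 9.58 and 9.68 on Sen+IgG arrays. 1 array, Res+IgG replicate 2, stood well above the rest. The difference under IgG was 0.65 (SE 0.25, limma adjusted p = 0.0969). Another Scd1 probe set gave an averaged difference of 0.48 that passed (adjusted p = 0.048). On Res+IgG replicate 2 the 11 tested adipocyte genes averaged 8.34, against 4.81 to 6.81 on the other arrays. The part of fat tissue in the Scd1 value was not tested.

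Elovl6, which elongates palmitate to stearate, read 8.31, 8.62 and 8.23 on Res+PD1 arrays and 8.28, 8.32 and 8.16 on Res+IgG arrays, against 8.35, 8.52 and 6.92 on Sen+PD1 arrays and 8.89, 8.59 and 8.71 on Sen+IgG arrays. Every Res+IgG array was below every Sen+IgG array, and Sen+PD1 replicate 3 (6.92) lay below all other arrays. The differences were 0.46 under anti-PD-1 and -0.48 under IgG, neither passing (adjusted p = 0.307 and 0.333). A dimmer Elovl6 probe set (mean level 4.23) was lower in Res tumours under both (-0.58, adjusted p = 0.0194, and -0.63, adjusted p = 0.0252). On their brightest probe sets, the enzymes of palmitate synthesis did not pass. Over both antibodies the difference was 0.08 for Fasn (fatty acid synthase), 0.17 for Acaca (acetyl-CoA carboxylase) and 0.00 for Acly (ATP citrate lyase), with 95% intervals of -0.26 to 0.41, -0.08 to 0.42 and -0.24 to 0.24. The Acly probe sets that passed the dim filter disagreed. Under anti-PD-1 the brightest gave 0.16 and the next 0.38 (limma adjusted p = 0.0587). A further one (mean level 7.94) gave 0.61 (adjusted p = 0.00674) and the dimmest of them -0.15.

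Of the regulators, Srebf2 was lower in Res tumours. It read 8.05, 8.38 and 8.25 on Res+PD1 arrays and 8.12, 8.11 and 8.12 on Res+IgG arrays, against 8.97, 9.07 and 8.44 on Sen+PD1 arrays and 8.66, 8.52 and 8.32 on Sen+IgG arrays. The groups did not overlap under either antibody, though Res+PD1 replicate 2 lay above Sen+IgG replicate 3. The difference over both antibodies was -0.49 (1.41-fold lower, SE 0.11, limma adjusted p = 0.00494). It was -0.60 under anti-PD-1 (adjusted p = 0.0132) and -0.38 under IgG (adjusted p = 0.115). Without Res+PD1 replicate 1 the call under anti-PD-1 was lost. The second probe set of Srebf2 gave a smaller averaged difference of -0.22 (adjusted p = 0.103).

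Neither of the other regulators passed. Srebf1 had means of 9.04 ± 0.12 in Res+PD1 and 9.11 ± 0.18 in Sen+PD1, and 8.91 ± 0.05 in Res+IgG and 9.01 ± 0.08 in Sen+IgG (SD, n = 3 each). Its averaged difference was -0.09 (95% interval -0.25 to 0.07). Insig1 differed by 0.24 under anti-PD-1 and -0.12 under IgG, with an averaged interval of -0.25 to 0.36. Stard4, a cholesterol transfer protein and known SREBP-2 target, differed by -0.08 on average (interval -0.28 to 0.11).

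On the brightest probe set of each gene, 6 sterol members passed the test of Res+PD1 against Sen+PD1 and none that of Res+IgG against Sen+IgG. Under anti-PD-1, 8 of 27 members passed, where 33.5% of all tested genes did (21.6% higher and 11.9% lower). These were 6 of 15 sterol members, 5 higher and Srebf2 lower, and 2 of 12 fatty acid members (Acss2 higher and Elovl5 lower), so the sterol count lay near the share of all genes. Res+PD1 and Sen+PD1 arrays did not overlap for 8 members, where this held for 45.7% of all tested genes. Under IgG 3 of 27 passed, all in the fatty acid branch (Acss2, Elovl1, Elovl5), where 16.2% of tested genes did (8.93% higher and 7.31% lower). Res+IgG and Sen+IgG arrays did not overlap for 11 members, 4 in the sterol and 7 in the fatty acid branch, where this held for 38.8% of all tested genes. Under IgG 0 of 15 sterol members passed with limma (1 at an unadjusted p under 0.05, and 2 with array weights). The absence of sterol calls under IgG depended on the probe set: the second one of Mvk passed there (0.38, limma adjusted p = 0.0211), as did a dim one of Hmgcs1 (mean level 4.40, -1.08, adjusted p = 0.0318). The median sterol difference was 0.24 under anti-PD-1 and -0.06 under IgG, and the median of all tested genes was 0.07 under each. The interaction, the test of that contrast between antibodies, called no member.

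5 sterol genes were higher in Res+PD1 than in Sen+PD1 tumours: Pmvk, Fdps, Mvk, Lss and Nsdhl. Pmvk, phosphomevalonate kinase, read 7.50, 7.64 and 7.41 on Res+PD1 arrays, against 7.08, 7.35 and 6.93 on Sen+PD1 arrays, a difference of 0.40 (limma adjusted p = 0.0186). Fdps, which makes farnesyl diphosphate, read 9.61, 9.89 and 9.67 on Res+PD1 arrays, against 9.12, 9.50 and 8.68 on Sen+PD1 arrays, a difference of 0.62 (adjusted p = 0.0269). In both genes Sen+PD1 replicate 3 was the lowest array and the groups did not overlap.

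Mvk, mevalonate kinase, read 6.65, 6.79 and 6.63 on Res+PD1 arrays, against 6.40, 6.54 and 6.05 on Sen+PD1 arrays (difference 0.36, adjusted p = 0.0318), and its second probe set gave 0.56 (adjusted p = 0.00133). Lss, lanosterol synthase, read 7.24, 7.54 and 7.36 on Res+PD1 arrays, against 6.93, 7.26 and 6.65 on Sen+PD1 arrays (difference 0.43, adjusted p = 0.0345), with overlapping groups. Nsdhl, a sterol dehydrogenase that removes C4 methyl groups, read 7.99, 8.04 and 7.86 on Res+PD1 arrays, against 7.63, 7.77 and 7.28 on Sen+PD1 arrays (difference 0.40, adjusted p = 0.0485). Of 19 alternative settings, 15 kept the call of Pmvk, 12 that of Fdps, 12 that of Mvk, 11 that of Lss and 4 that of Nsdhl. The Nsdhl call was kept without 2 of 12 arrays left out in turn. The other 9 sterol members did not pass on their brightest probe sets. Their differences lay between 0.03 (Cyp51 and Stard4) and 0.52 (Idi1, isopentenyl diphosphate isomerase, limma adjusted p = 0.138). Another probe set of Fdft1 did pass, with the same sign as the brightest one (0.06).

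Sen+PD1 replicate 3 held the lowest of the 12 values for 20 of 27 members, 14 of 15 in the sterol branch and 6 of 12 in the fatty acid branch, against 24.1% of all tested genes. Its sterol genes lay below the mean of the other Sen+PD1 arrays in 15 of 15 cases, by a median of -0.61, ranging from -1.09 (Idi1) to -0.29 (Pmvk), where the median over all tested genes was -0.01. Idi1 read 9.40, 9.85 and 8.54 in Sen+PD1, and replicate 3 was the lowest of the 12 arrays. Hmgcs1, which makes HMG-CoA, read 10.64, 10.90 and 10.07, and Cyp51, lanosterol demethylase, read 8.98, 9.33 and 8.13. On the same array the skeletal muscle genes lay 1.54 above the other Sen+PD1 arrays (median), the adipocyte genes 1.17 and the macrophage genes 0.85 above, while the cell cycle genes lay at -0.78 and the epithelial genes at -0.39. All 12 epithelial and all 11 cell cycle genes were lower there. The part of these tissues in the members' values was not tested.

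Without that array no sterol member was higher in Res+PD1 tumours by the test. 4 of 27 members then passed, where 29% of all tested genes did (18.7% higher and 10.3% lower): Acss2 (0.97, limma adjusted p = 0.000566), Srebf2 (-0.79, adjusted p = 0.00124), Elovl5 (-0.40, adjusted p = 0.0125) and Scd2 (-0.41, adjusted p = 0.0357). The only sterol member among them was Srebf2, and the sterol median was 0.03. No sterol member was higher without Res+PD1 replicate 2 either, where Srebf2 was again the sterol member called, nor with Res+PD1 and Sen+PD1 fitted alone, where 0 sterol members passed. Without Sen+PD1 replicate 3, Fdps kept a difference of 0.41 (limma adjusted p = 0.0818) and Pmvk one of 0.30 (adjusted p = 0.0591). The count of members was 5 without Sen+PD1 replicate 1 (32.6% of all tested genes) and 5 without Res+PD1 replicate 1 (25.4%). It was 3 without Res+PD1 replicate 2 (24.7%) and 4 without Res+PD1 replicate 3 (26%).

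The same omission raised the count under IgG, since all groups share 1 estimate of the spread. 8 of 27 members then passed, where 22.5% of all tested genes did (13% higher and 9.52% lower). Acss2 and Elovl1 were higher, and Fads1 (-0.35, limma adjusted p = 0.00987), Fads2 (-0.55, adjusted p = 0.0122), Elovl6 (-0.48, adjusted p = 0.0174), Scd2 (-0.44, adjusted p = 0.0221), Srebf2 (-0.38, adjusted p = 0.0271) and Elovl5 (-0.30, adjusted p = 0.0314) were lower. 5 of the 12 fatty acid members were thus lower in Res+IgG than in Sen+IgG tumours in this fit, against 1 (Elovl5) with all arrays. Sen+IgG replicate 1 held the highest of the 12 values for 7 of 12 fatty acid members, against 10.2% of all tested genes. On that array the epithelial genes lay 0.50 above the other Sen+IgG arrays (median), and the skeletal muscle genes lay at -3.81. The part of these tissues in the fatty acid values was not tested. Without that array alone the count under IgG was 1 (Acss2, 11.2% of all tested genes), as it was without Sen+IgG replicate 3 (10.1%). Without both arrays that stood apart, 5 passed (19.1% of all tested genes), Acss2, Elovl1, Elovl5, Fads1 (-0.31) and Fads2 (-0.42). Over both antibodies, 10 members passed without Sen+PD1 replicate 3, where 42.5% of all tested genes did (26.6% higher and 15.9% lower). Fads1, Fads2, Elovl6 and Cyp51 were the lower ones added, on their brightest probe sets. With all arrays, that of Cyp51 gave -0.34 under IgG and 0.03 under anti-PD-1. Another Cyp51 probe set (mean level 7.01) gave 0.07 and 0.64, and a dim one (4.19) gave -0.02 and 0.35.

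**Figure D3:**
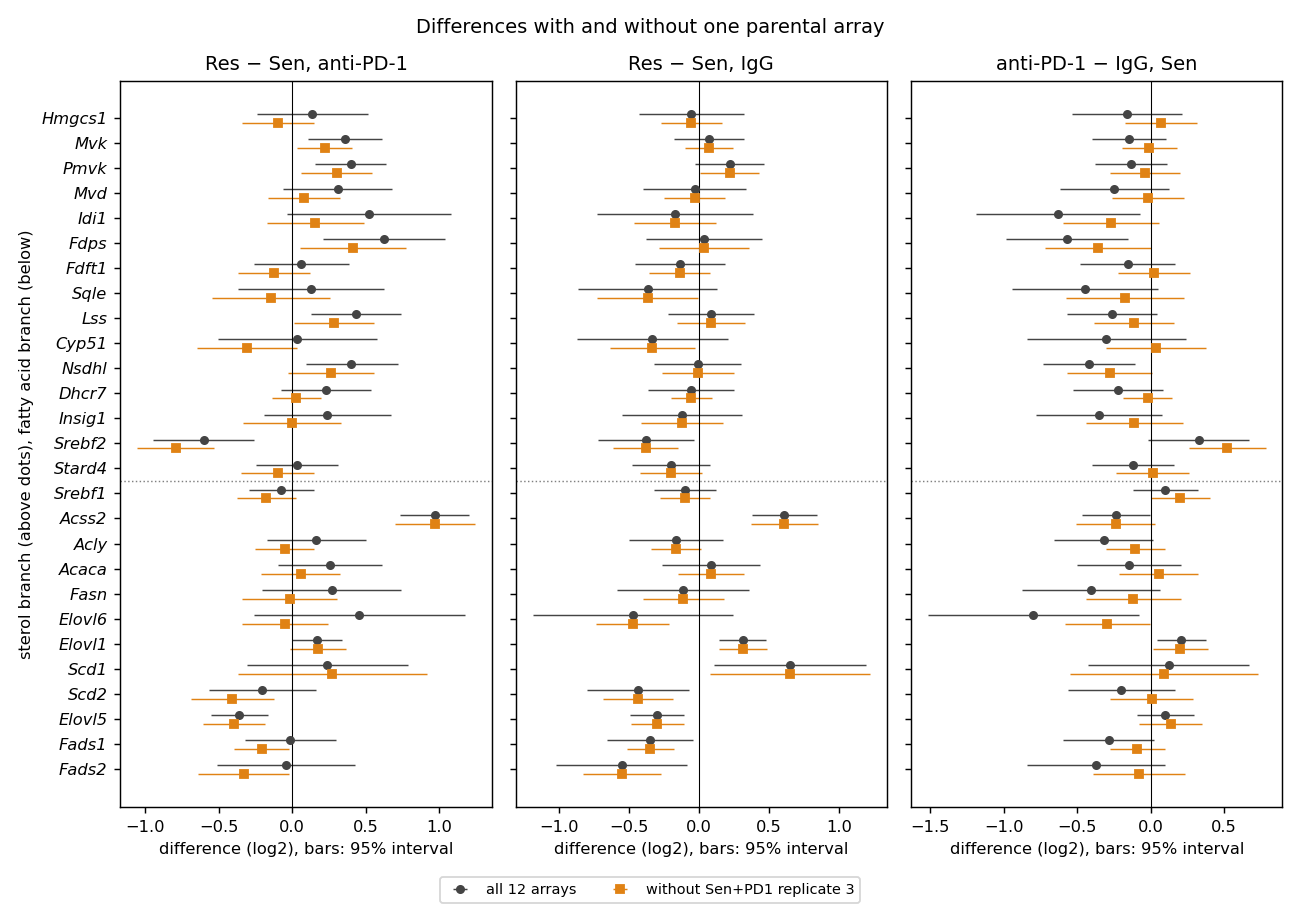
Log2 differences of the 27 members with 95% intervals (bars), for all 12 arrays (circles) and without Sen+PD1 replicate 3 (squares): Res minus Sen under anti-PD-1, the same under IgG, and anti-PD-1 minus IgG in Sen. Under anti-PD-1 the sterol genes above the dotted line shift left without that array, while Acss2 stays at 0.97.

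Anti-PD-1 called no member in either line. In Sen tumours, 0 of 27 members passed with limma, where 3.5% of all tested genes did (1.23% higher and 2.27% lower). At an unadjusted p under 0.05 there were 6: Fdps (-0.57), Nsdhl (-0.42), Idi1 (-0.63), Elovl6 (-0.80), Acss2 (-0.24) and Elovl1 (0.21), with a smallest adjusted p of 0.117. The difference was negative for 22 of 27 members, with a median of -0.24, against -0.01 over all tested genes. Sen+PD1 and Sen+IgG arrays did not overlap for 4 members (Nsdhl, Elovl6, Acss2 and Elovl1), where this held for 22.6% of all tested genes. Without Sen+PD1 replicate 3 the median was -0.02 and again 0 members passed, the smallest adjusted p being 0.0721 for Srebf2 (difference 0.52). With array weights Srebf2 passed (0.55, limma adjusted p = 0.0287), where 5.93% of all tested genes did. Without Sen+PD1 replicate 2, Fdps (-0.77) and Idi1 (-0.93) passed, where 3.27% of all tested genes did. That fit keeps Sen+PD1 replicate 3, the lowest array for both genes (8.68 for Fdps and 8.54 for Idi1).

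In Res tumours no member passed between the antibodies. 0 of 27 passed with limma, none at an unadjusted p under 0.05 either, where 0% of all tested genes passed, and 0 passed with array weights. The differences ran from -0.29 (Scd1) to 0.14 (Fads2), with a median of 0.05 and a smallest adjusted p of 0.896. Res+PD1 and Res+IgG arrays did not overlap for 1 member, Mvk (0.14), where this held for 14.2% of all tested genes. The 95% intervals were -0.11 to 0.36 for Acss2, -0.15 to 0.23 for Elovl5 and -0.23 to 0.45 for Srebf2. The interaction called 0 members with limma, where 0% of all tested genes passed, and 0 with array weights, where 0.781% did. 1 member, Acss2, had an unadjusted p under 0.05 (0.36, adjusted p = 0.255). The interaction median was 0.33 over the members and 0.10 without Sen+PD1 replicate 3. The effects of anti-PD-1 and the line differences share their groups, so they are not separate evidence.

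**Figure D4:**
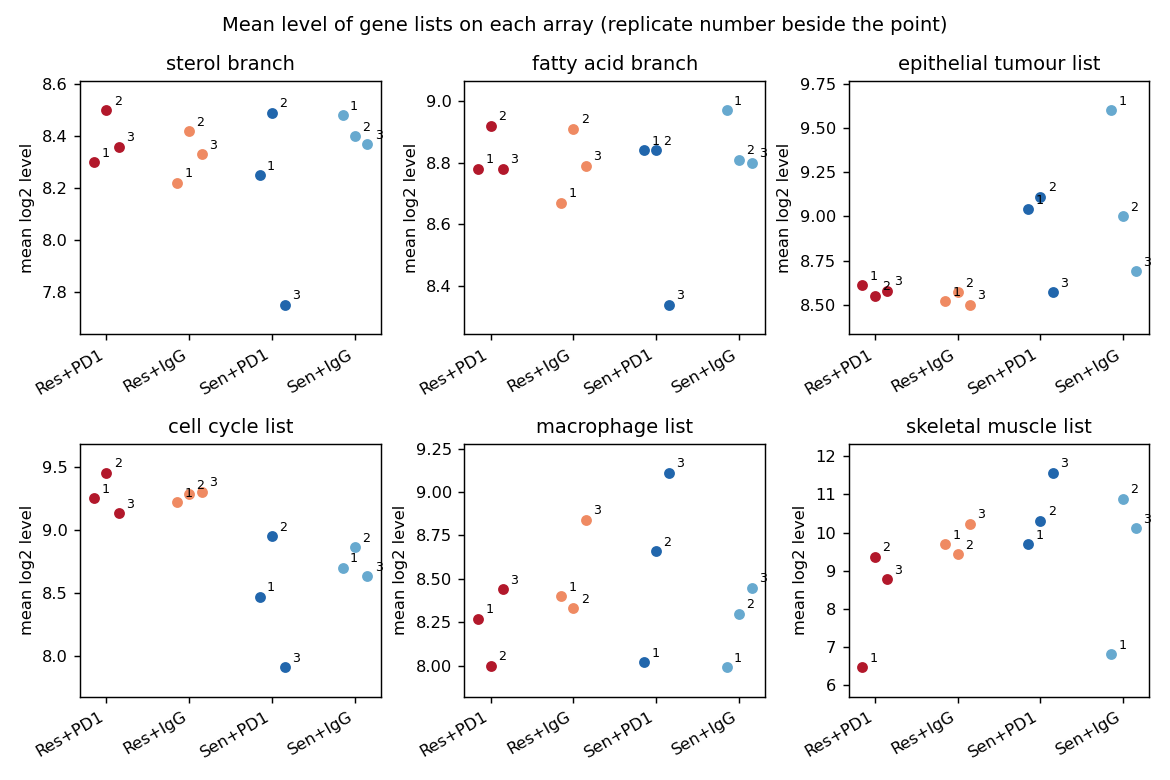
Mean log2 level of each gene list on each array, by group, with the replicate number beside each point. Sen+PD1 replicate 3 is lowest for both branches (7.75 sterol, 8.34 fatty acid) and for the cell cycle list (7.91), and highest for the macrophage (9.11) and skeletal muscle (11.56) lists.

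The further sterol lists were read against the 33.5% of all tested genes called under anti-PD-1 (21.6% higher and 11.9% lower). In both directions together, their counts lay near or below 33.5%. By direction, the count of higher sterol synthesis genes and that of lower transport and efflux genes, given below, lay above the matching shares. Of 8 other measured sterol synthesis genes, 3 were higher in Res+PD1 than in Sen+PD1 tumours: Lbr (0.73, limma adjusted p = 0.0138) and Msmo1 (0.78, adjusted p = 0.0272), a sterol C14 reductase and a C4 methyl oxidase, and Ebp (0.33), a sterol isomerase. 0 of the 8 passed under IgG with limma (2 at an unadjusted p under 0.05), while 1 was higher and 1 lower when Sen+PD1 replicate 3 was left out. Without Sen+PD1 replicate 3, Lbr (0.47, adjusted p = 0.0204) and Msmo1 (0.45, adjusted p = 0.041) still passed under anti-PD-1. Of 7 genes of SREBP processing and sterol uptake, 1 passed under anti-PD-1, Mbtps2 (0.56, adjusted p = 0.00471), the site-2 protease that releases SREBPs. Of 12 genes of cholesterol transport and efflux, 3 were lower under anti-PD-1, the exporters Abca1 (-1.09, adjusted p = 0.0102) and Abcg1 (-0.82), and Npc2 (-0.30), a lysosomal carrier. Without that array, Abca1 alone of the 3 passed (-0.88, adjusted p = 0.0366).

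In the further fatty acid lists some genes passed between the lines. Counts in both directions together lay near or below the shares of all tested genes (33.5% under anti-PD-1 and 16.2% under IgG). Me1, malic enzyme, which makes NADPH for fatty acid synthesis, had means of 10.83 in Res+PD1 and 11.65 in Sen+PD1, and 10.58 in Res+IgG and 11.43 in Sen+IgG. It was lower in Res tumours under anti-PD-1 (-0.82, limma adjusted p = 0.00171) and IgG (-0.85, adjusted p = 0.00343). Tecr, the last enzyme of the elongation cycle, was higher under both (0.47, adjusted p = 0.0113, and 0.45, adjusted p = 0.0252). Under anti-PD-1, 3 of 16 other fatty acid synthesis genes passed, with Elovl7 (0.59) higher, and under IgG 2 of 16 did. Of 14 genes of fatty acid activation and triglyceride synthesis, 1 was higher and 4 lower under anti-PD-1. There, 21.6% of all tested genes were higher and 11.9% lower. Of the same 14, 0 were higher and 3 lower under IgG, where 8.93% of all tested genes were higher and 7.31% lower. Both counts of lower genes lay above the matching share. Those lower under IgG were Mboat2 (-0.95) and Lpcat3 (-0.72), which load fatty acids onto phospholipids, and Acsl4 (-0.50), which activates polyunsaturated fatty acids. Mboat2 (-0.62, adjusted p = 0.0102) and Acsl4 (-0.43, adjusted p = 0.0155) were also lower under anti-PD-1, together with Dgat1 (-0.73), which makes triglyceride, while Agpat2 (0.77), which makes phosphatidic acid, was higher.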

How the data were processed

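Total RNA of whole tumours was hybridized to 12 Affymetrix mouse arrays, 3 per group, per the labels' protocols. The table the authors deposited holds log2 values, with a row for each probe set and a column for each array. The log2 scale was read from the values (1.62 to 13.88). Background correction, normalization and summarization are not given in the sources used here. Array medians lay between 4.75 and 4.89. No pair of arrays was identical (0 pairs), and 0 columns were unused. The number of arrays, not depth, limits the precision.

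Of 45101 probe sets, 64 were controls, 34945 carried 1 gene, 932 several and 9160 none in the platform annotation. Only the 1-gene probe sets entered, 34741 of them named through the gene number in a RefSeq table of GRCm38.p6. A gene was represented by its brightest probe set, by the mean of the 12 arrays. Genes with at least 3 arrays above the 25th percentile of all values (3.32) were tested, 15493 in all.

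A limma model (version 3.58.1, R 4.3.3) of the 4 group means was fitted to all 12 arrays, leaving 8 residual degrees of freedom, with 2.98 more from the prior. It gave 6 contrasts: Res minus Sen under IgG, under anti-PD-1 and averaged, anti-PD-1 minus IgG in Res and in Sen, and their interaction. Tests were two-sided, with Benjamini-Hochberg adjustment over all tested genes of a contrast and a call threshold of 0.05. The fit was tested on simulated data. The members and lists were chosen with earlier results of these data known. All members are named, and of each further pathway list the called genes with the 3 smallest p-values in each direction. Marker lists of other tissues are given as counts and levels.

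Alternatives were array weights, centring, no filter, the mean of all probe sets, other probe sets, leaving out arrays, the groups compared alone, and the replicate number as a block. Arrays of the same number deviated together (correlations of 0.113, 0.123 and 0.174) between the antibodies in Res tumours, where the rule of every correlation above 0.1 was met. In the other comparisons the rule was not met, because of replicate 2. Between the antibodies in Sen, replicates 1, 2 and 3 gave 0.636, 0.057 and 0.44. Between the lines they gave 0.173, -0.208 and 0.254 under IgG, and 0.272, 0.093 and 0.217 under anti-PD-1. Replicates 1 and 3 thus correlated more in each of these comparisons than in Res tumours. Plots used matplotlib 3.10.9 (Python 3.11.15).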

Additional observations from a re-analysis of the deposited data

How the results depend on the processing

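Counts of called members moved with the fit, as did the shares of all tested genes. Between the lines under IgG (3 called), 8 passed with array weights (33.3% of all tested genes) and 5 without both arrays that stood apart (19.1%). With the groups compared alone 5 passed (15.3%), and with 1 array left out 1 to 8 did (8.22% to 22.5%). Under anti-PD-1 (8 called) these counts were 4 (37.1%), 5 (31.6%), 2 (25.7%) and 3 to 10 (24.7% to 34.6%). Averaged over both antibodies (6 called), array weights gave 10 (50.8%) and leaving out 1 array 5 to 10 (34.1% to 42.5%). For anti-PD-1 in Sen tumours (0 called), array weights gave 1 (5.93%) and leaving out 1 array 0 to 2 (0.0581% to 4.6%). For anti-PD-1 in Res tumours and the interaction, each of these settings that could be run gave 0. Acss2 was called in all 19 settings under each antibody, and Acss2, Elovl1, Elovl5, Pmvk and Srebf2 in all 18 settings averaged over both. The cause of these movements was not tested.

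With the replicate block, the paired count was 2 under IgG (18.4% of all tested genes), 8 under anti-PD-1 (36.2%) and 8 averaged over both antibodies (41.7%). The count was 0 for each anti-PD-1 contrast and the interaction. Under IgG the block called Acss2 and Elovl1, not Elovl5. The numbers pair the arrays by the rule between the antibodies in Res tumours. There no gene was called with or without the block, so the unchanged count cannot show whether the pairing matters.

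After the dim filter, applied here to each probe set, 19 members had 35 other probe sets. Their sign was opposite to that of the brightest in 10 cases under IgG, 8 under anti-PD-1 and 12 averaged. Those in which either probe set was called were Acss2 (-0.007) and Elovl1 (-0.10) under IgG, Elovl6 (-0.58) under anti-PD-1, and, averaged, Acly (0.34), Fdft1 (0.24 and 0.47), Hmgcs1 (-0.82) and Scd2 (0.003). The cause was not tested. The median SE of a difference was 0.117 between the lines under IgG and 0.166 for the interaction.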
